A study of Homo sapiens with 36 samples.

Results

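Immediate early genes are the genes whose transcripts a cell makes within minutes of a stimulus, without first making new protein. The 10 described here were FOS, FOSB, JUN and JUNB, EGR1 and EGR3, NPAS4, NR4A1, ARC and IER2, taken by gene symbol from the 62710 genes of the deposited count and TPM tables, and each symbol was carried by 1 gene. The RNA came from H9, an embryonic stem cell line of human origin carrying NGN2 under doxycycline control; NGN2 is a transcription factor that turns stem cells into neurons. Total RNA was used after removal of ribosomal RNA. Cells labelled WT, RAI1 Het (HET here) and RAI1 Knockout (KO here) were sampled at days 0, 3 and 7 of induction with 4 replicates in each of the 9 groups, 36 libraries in all. RAI1 is a chromatin regulator. All groups carry the inducible NGN2, and from the labels it cannot be said whether each mutant genotype is 1 clone or several, so a clone and its genotype cannot be told apart.

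Library totals were 23.9 to 56.7 M counts. RAI1 was counted 808 to 4951 times in a library and its libraries overlapped between WT and each mutant on all 3 days, so the counts do not check the genotype labels. The summed level of 6 stem cell markers was 1984 to 4438 CPM (counts scaled to library size, per 1e6) at day 0, and of 8 neuron markers 222 to 663 CPM at day 0 and 5528 to 14185 CPM at day 7. The libraries of day 0 thus carried stem cell markers although the labels call every sample an iNeuron. Small structural RNAs took 2.84% to 27.5% of the counts of a library. On TPM, which scales by gene length, they weighed more. RN7SL1 alone averaged 2.58e+05 TPM in WT at day 0 and 3.11e+05 at day 7, and RN7SK 85334 and 2.31e+05. TPM has a fixed total, so other genes read lower on it where these RNAs are higher. TPM is thus not a check free of them.

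The products of these genes have different jobs. FOS and FOSB pair with JUN or JUNB to form AP-1, a factor that binds DNA as a dimer. EGR1 and EGR3 are zinc finger factors, NR4A1 is an orphan nuclear receptor and NPAS4 is a neuron-enriched helix-loop-helix factor that responds mainly to calcium entry. ARC is not a transcription factor but a cytoskeleton-associated protein of synapses that removes AMPA receptors from the surface, and IER2 is a small nuclear protein of the early response. In neurons, calcium entry and growth factor signals reach these promoters through CREB, SRF and MEF2, so the same genes report synaptic activity and also answer to serum, feeding and handling of a culture. MAP kinase phosphatases and Sprouty proteins, themselves induced, switch the response off again.

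Promoters are shown because 7 of the 9 tested members fell together in WT cells while JUNB rose. Each window is the 250 bases before the RefSeq start (GRCh38.p14), written 5′ to 3′ in the direction of transcription. Capitals mark TGACGT or its reverse ACGTCA (the core of a CREB site), the CArG box that SRF binds (the runs of 10 bases in EGR1) and TATAAA.
EGR1, chr5:138465229-138465478, plus strand: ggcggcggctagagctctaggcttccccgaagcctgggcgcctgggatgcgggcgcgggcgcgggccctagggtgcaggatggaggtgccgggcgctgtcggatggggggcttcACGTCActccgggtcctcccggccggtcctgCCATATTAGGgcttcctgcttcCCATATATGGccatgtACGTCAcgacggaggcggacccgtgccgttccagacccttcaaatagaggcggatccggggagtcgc
FOSB, chr19:45467746-45467995, plus strand: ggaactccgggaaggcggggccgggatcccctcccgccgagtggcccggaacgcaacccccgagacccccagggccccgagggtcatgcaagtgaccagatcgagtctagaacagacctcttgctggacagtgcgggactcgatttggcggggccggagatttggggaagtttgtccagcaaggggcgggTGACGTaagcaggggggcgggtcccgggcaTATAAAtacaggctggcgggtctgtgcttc
NPAS4, chr11:66420754-66421003, plus strand: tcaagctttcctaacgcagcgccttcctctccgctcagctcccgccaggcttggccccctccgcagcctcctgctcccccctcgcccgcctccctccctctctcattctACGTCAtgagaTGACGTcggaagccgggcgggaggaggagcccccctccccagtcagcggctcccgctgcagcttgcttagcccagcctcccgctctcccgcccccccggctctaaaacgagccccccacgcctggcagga
JUNB, chr19:12791236-12791485, plus strand: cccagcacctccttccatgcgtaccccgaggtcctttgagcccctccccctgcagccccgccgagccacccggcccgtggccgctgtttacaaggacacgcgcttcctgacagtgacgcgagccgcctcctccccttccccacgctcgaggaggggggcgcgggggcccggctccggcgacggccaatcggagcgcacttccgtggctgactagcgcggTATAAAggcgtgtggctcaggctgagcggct
RefSeq windows were found for 8 of the 10 members. On either strand, TGACGT was in 4 of these 8 (EGR1, FOS, FOSB and NPAS4) and in 7.1% of 35116 windows of the same length, 2 copies each in EGR1 and NPAS4. The full palindrome TGACGTCA, which contains TGACGT, was in no member window and in 1.65% of all. The CArG box was in EGR1 alone among the 8 (83 and 105 bases before the start, 1.16% of all windows), and TATAAA was in FOS, FOSB and JUNB (10.7%). The AP-1 site TGANTCA and the E-box CAGATG were in none (6.57% and 12.2% of all windows), and TGACATCA, the variant AP-1 site, was in JUN (2.37%). All 4 windows with TGACGT belonged to genes that fell from day 0 to day 3 in WT, but so did IER2 and NR4A1, whose windows had no copy. A match describes the letters only, and a missing match covers these 250 bases only, since sites farther away were not searched. The FOS and JUN windows run into transcripts annotated by GENCODE and are not printed.

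All 10 are protein-coding. In GRCh38 with GENCODE 29, FOS lies on chromosome 14 (75278774 to 75282230), JUN on chromosome 1 (58780788 to 58784327), EGR1 on chromosome 5 (138465490 to 138469315), ARC on chromosome 8 (142611044 to 142614472), NPAS4 on chromosome 11 (66421004 to 66426707) and NR4A1 on chromosome 12 (52022832 to 52059507). FOSB (45467995 to 45475179), JUNB (12791496 to 12793315) and IER2 (13150415 to 13154908) are on chromosome 19, and EGR3 is on chromosome 8 (22687659 to 22693302). FOSB overlaps ERCC1 and JUNB overlaps HOOK2 on the opposite strand, and NR4A1, IER2 and EGR3 each overlap a noncoding gene. Whether counting used strand is not given in the sources used here, so the levels of these 5 are uncertain to that extent.

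**Figure D1:**
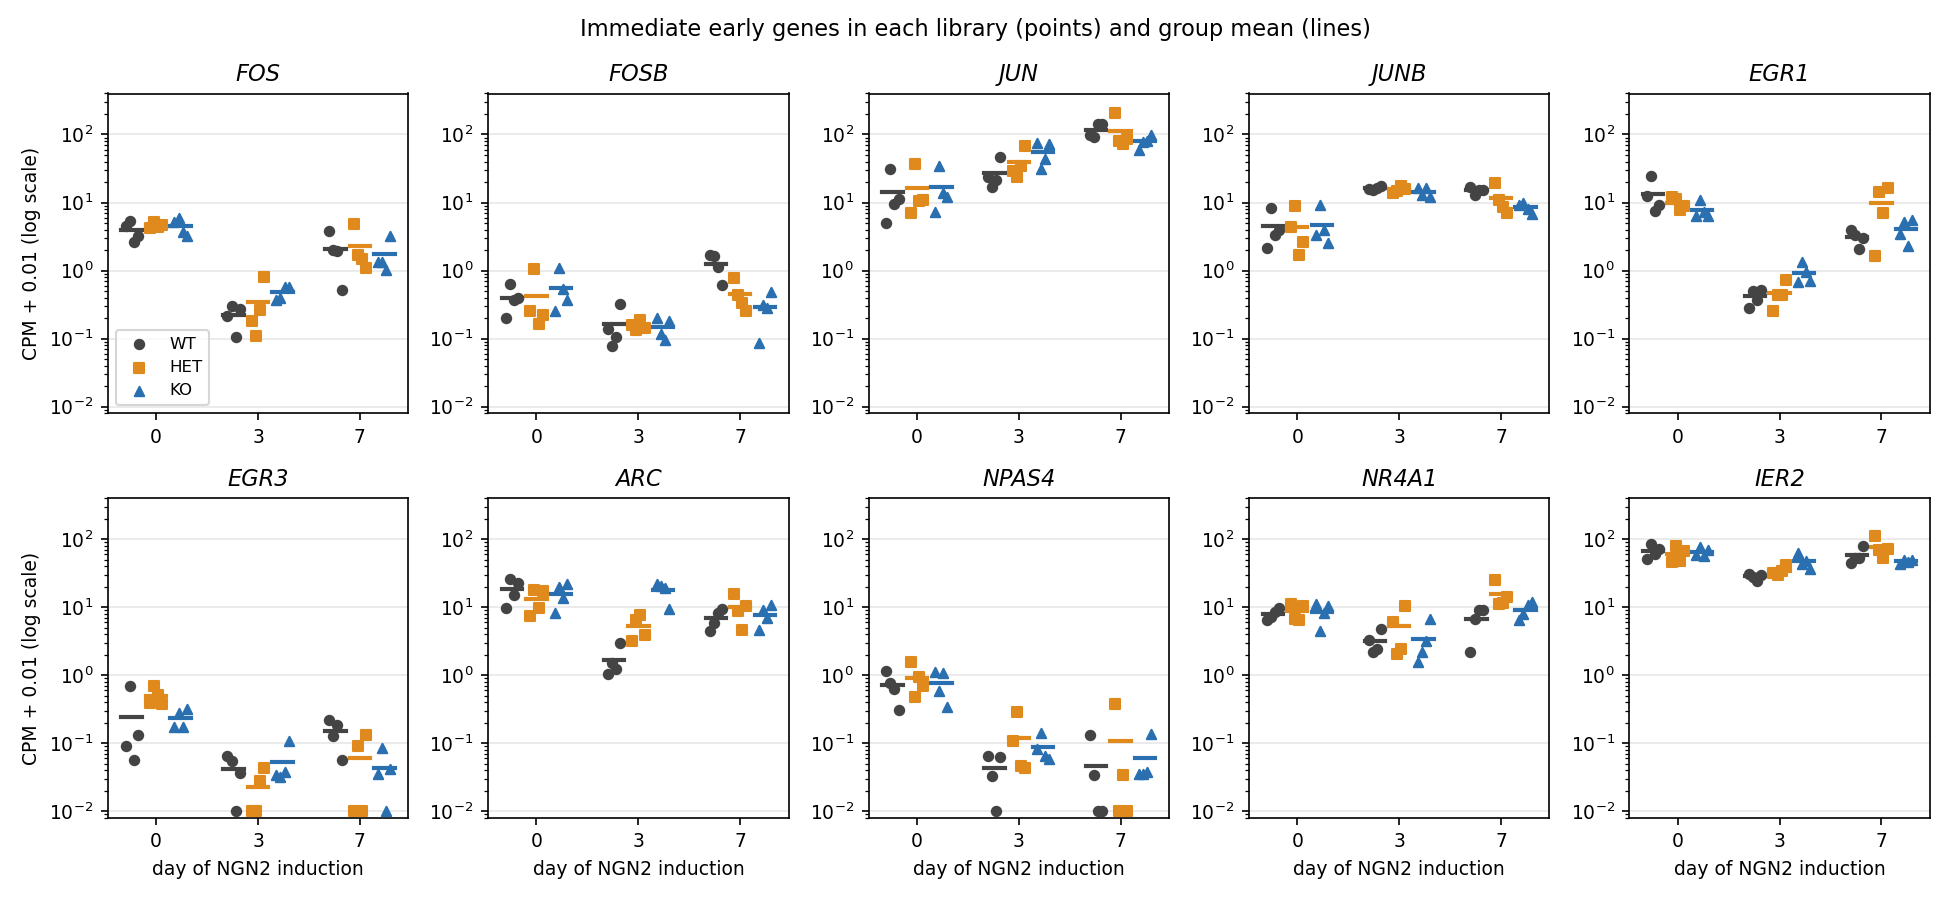
The plot of all 10 genes by day shows CPM plus 0.01 on a log axis for each library (points) and the mean of the 4 libraries of a group (lines), by genotype. FOS, EGR1 and NPAS4 drop at day 3 in every genotype, JUNB rises, and ARC drops in WT but sits at 9.49 to 21.6 CPM in KO; points at the bottom of an axis are libraries with 0 counts.

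The WT time course asks how these genes move while stem cells become neurons. From day 0 to day 3, 7 of the 9 genes that could be tested fell and JUNB rose; with the structural RNA share in the model 5 members were called, with FOSB, NR4A1 and NPAS4 losing theirs. The 5 small structural RNAs themselves all rose (median 1.57 log2), and their part in the member results was not tested beyond that fit. From day 3 to day 7 the same 7 apart from NPAS4 rose again, and JUN rose with them; on the TPM scale 4 of these kept a call (FOS, FOSB, JUN and ARC). In edgeR at an adjusted p under 0.05, 60% of all 22268 genes tested changed from day 0 to day 3 (28.7% lower, 31.2% higher) and 46.2% from day 3 to day 7 (23.3% higher), so being called is common here. The libraries of the days did not overlap for 7 of the 9 from day 0 to day 3 (57.9% of all genes) and 6 of the 9 from day 3 to day 7 (37.5%). In bulk RNA, fewer cells that express a gene and less RNA per cell cannot be told apart.

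Of the AP-1 genes, FOS was at 4.45, 5.27, 2.66 and 3.25 CPM in the 4 WT libraries of day 0 and at 0.203, 0.292, 0.0957 and 0.263 CPM at day 3. The groups did not overlap, with a log2 change of -4.18 (SE 0.53, adjusted p 1.06e-05). At day 7 FOS was back at 0.508 to 3.79 CPM (log2 change from day 3 3.24, SE 0.52, adjusted p 1.56e-04). FOSB, its close relative, had a fall of 1.40 on the log2 scale to day 3 (adjusted p 0.0324; the libraries overlapped) and a rise of 3.05 to day 7 (adjusted p 1.88e-04). JUNB went the other way: 2.17, 8.35, 3.3 and 3.91 CPM at day 0 became 15.6, 15.5, 16.5 and 17.8 CPM at day 3 (log2 change 1.87, SE 0.31, adjusted p 1.10e-04), and it stayed at 12.8 to 17.1 CPM at day 7. JUN was at 5.06, 30.9, 9.43 and 11.2 CPM at day 0, at 16.9 to 46.8 CPM at day 3 and at 91.1 to 141 CPM at day 7. Its rise from day 3 to day 7 passed (log2 2.12, SE 0.45, adjusted p 0.00141) and that from day 0 to day 3 did not (0.93, SE 0.44, adjusted p 0.0823). By length-scaled level, JUN went from the fifth of the 10 genes in WT at day 0 (median 2.5 TPM) to the first at day 7 (11.95 TPM).

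Among the other factors, EGR1 fell from 12.3, 24.7, 7.56 and 9.2 CPM at day 0 to 0.276, 0.495, 0.359 and 0.5 CPM at day 3 in WT, a log2 change of -5.06 (SE 0.41, adjusted p 1.41e-07). It rose again to 2.07 to 3.91 CPM at day 7 (2.93, SE 0.39, adjusted p 2.71e-05), so its day 7 libraries lay above those of day 3 and below those of day 0. NPAS4 had 42, 32, 26 and 10 counts at day 0, then 3, 1, 0 and 2 at day 3 and 4, 1, 0 and 0 at day 7. NPAS4 was thus at or near the floor once neurons formed, with no fold given because those counts are so few; the fall to day 3 passed (adjusted p 1.84e-04). EGR3 had 2 to 29 counts in WT at day 0, 0 to 3 at day 3 and 2 to 7 at day 7, and was too low to be tested in the WT series. NR4A1 fell by 1.33 on the log2 scale to day 3 (SE 0.37, adjusted p 0.00613) and rose by 1.09 to day 7 (SE 0.37, adjusted p 0.0242).

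ARC was at 9.82, 25.8, 14.8 and 22.4 CPM in WT at day 0, at 1.03, 1.51, 1.22 and 2.92 CPM at day 3 and at 4.45, 5.84, 8.15 and 9.47 CPM at day 7. No library of one day overlapped those of the next. The log2 change to day 3 was -3.46 (SE 0.39, adjusted p 3.27e-06) and that to day 7 2.08 (SE 0.37, adjusted p 3.67e-04). IER2 had the highest TPM of the 10 at day 0 (median 23.9 TPM in WT), fell from 51.4 to 84.2 CPM to 24.5 to 31 CPM at day 3 (log2 change -1.24, SE 0.19, adjusted p 6.58e-05) and rose to 44.7 to 79.8 CPM at day 7 (1.03, SE 0.19, adjusted p 5.04e-04).

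In HET and KO most members also fell by day 3. From day 0 to day 3, 6 of 10 tested members fell and JUNB rose in HET (48.3% of all genes called; 23.9% lower, 24.4% higher), and 6 of 9 fell while JUN and JUNB rose in KO (59.3% called; 29.6% lower, 29.7% higher). FOS fell by 3.82 on the log2 scale in HET (adjusted p 3.11e-04) and by 3.27 in KO (adjusted p 7.76e-06), and EGR1 by 4.48 and 3.10 (adjusted p 6.85e-05 and 3.10e-06). From day 3 to day 7, 5 of 10 rose in HET (FOS, JUN, EGR1, NR4A1 and IER2; 41.2% of all genes called, 20.8% higher), and in KO 3 of 9 rose (FOS, EGR1 and NR4A1) and ARC fell (47.8% called; 24.3% higher, 23.6% lower). On the TPM scale none of these 4 KO changes passed. For IER2 in KO the log2 change from day 3 to day 7 was 0.03 (95% interval -0.30 to 0.37). ARC in KO showed no day 3 fall that passed: 8.1, 20, 13.4 and 21.5 CPM at day 0 were followed by 21.6, 20.7, 19 and 9.49 CPM at day 3 (log2 change 0.15, 95% interval -0.57 to 0.87), and it fell by 1.15 on the log2 scale to day 7 (adjusted p 0.0126).

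At day 0 no member was called between genotypes in edgeR: 0 of 10 in KO against WT (2.08% of 20437 genes called), 0 of 10 in HET against WT (1.63%) and 0 of 10 in KO against HET (0.856%). At an unadjusted p under 0.05 there were 1, 0 and 0, and DESeq2 and limma on TPM called none. The 1 was EGR1, at 6.42, 10.8, 7.28 and 6.41 CPM in KO against 12.3, 24.7, 7.56 and 9.2 CPM in WT (log2 -0.77, SE 0.33, adjusted p 0.350). Intervals were wide for the genes that varied most: for JUN the KO difference was 0.29 with a 95% interval of -1.11 to 1.70, while for IER2 it was -0.02 with -0.43 to 0.39. These intervals ignore the replicate number, along which JUN deviated alike in WT and KO (replicate 1 by -1.05 and -0.92 log2, replicate 2 by 1.35 and 1.21). The lowest adjusted p of JUN in KO over the alternative fits was 0.0947. With the replicate number as a block ARC was lower in HET than in WT (log2 -0.46, adjusted p 0.0123), and without WT replicate 2 EGR3 was higher in HET (2.52, adjusted p 0.0138).

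At day 3 ARC was higher in KO than in WT, at an intermediate level in HET, and IER2 and EGR1 were also higher in KO. FOS and JUN were higher in the mean in KO without passing, and JUNB and NR4A1 showed no difference that passed. Over 15 alternative fits of KO against WT, EGR1 lost its call in 10 and IER2 in 1, and JUN gained one in 4. Of the 7 members tested, 3 were called in KO against WT (21.6% of 21563 genes called; 12.6% higher), 1 in HET against WT (3.28%; 2.52% higher) and 1 in KO against HET (4.35%; 2.77% higher). The libraries of the 2 genotypes did not overlap for 4 of the 7 in KO against WT (25% of all genes), for 1 in HET against WT (8.72%) and for 1 in KO against HET (10.8%). The median log2 change of the 7 was 1.02 in KO and 0.53 in HET, against -0.05 and 0.02 over all genes tested. FOSB, EGR3 and NPAS4 had at most 12 counts in any library of day 3 and were not tested.

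**Figure D2:**
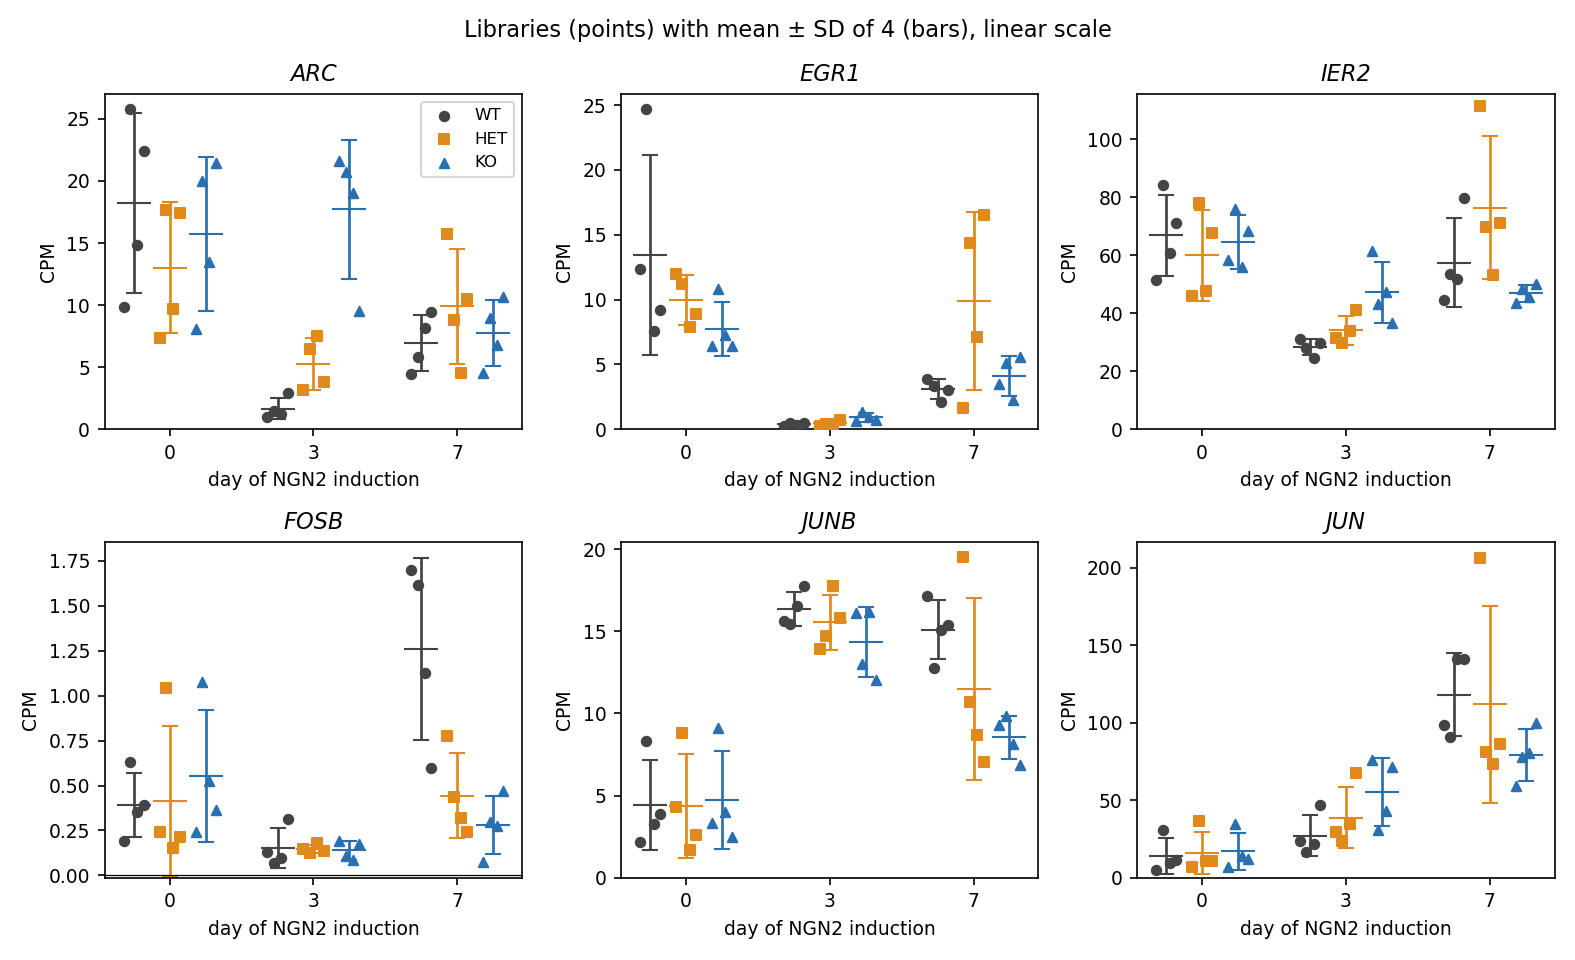
The plot of 6 genes on a linear scale shows CPM by day for each library (points, by genotype) with the mean and SD of 4 libraries (bars). At day 3 the 4 KO libraries of ARC lie above the 4 HET libraries, and these above the 4 WT libraries; at day 7 the FOSB and JUNB libraries of KO lie below those of WT.

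ARC was counted 56, 67, 51 and 111 times in the WT libraries of day 3, 130, 260, 418 and 114 times in HET and 902, 954, 681 and 384 times in KO. Mean CPM was 1.67 ± 0.86 for WT, 5.27 ± 2.08 for HET and 17.7 ± 5.58 for KO (SD, n = 4), and no library of one genotype overlapped another genotype. KO exceeded WT by 3.39 log2 (SE 0.40, adjusted p 7.87e-05), HET exceeded WT by 1.68 (SE 0.38, adjusted p 0.0286) and KO exceeded HET by 1.72 (SE 0.37, adjusted p 0.0218). The KO difference kept its call in all 15 alternative fits, between 1.92 log2 on the TPM scale, log2(TPM + 1), and 3.82. The HET difference lost it in 6, with an adjusted p of 0.967 on TPM and 0.0841 to 0.103 without WT replicate 1, 2 or 3 or HET replicate 2 or 3. ARC had medians of 0.23 TPM in WT and 0.875 in HET, both under the 1 which the TPM scale adds, so its fold is shrunk there. No member was called in KO against HET without HET replicate 1 or KO replicate 1, 2 or 3, or on TPM. The change from day 0 to day 3 differed between KO and WT for 1 of the 10 in edgeR, ARC (interaction 3.62 log2, SE 0.58, adjusted p 1.29e-04; 8.55% of 24764 genes called, 5.37% higher). EGR1 (1.97, adjusted p 0.0510) was called as well with DESeq2, with the replicate block and without WT day 0 replicate 3, KO day 0 replicate 2 or KO day 3 replicate 4, the last of which also added IER2. For HET against WT no member passed (0.271% called): at an unadjusted p under 0.05 there was 1, ARC with 2.15 log2 (SE 0.58, adjusted p 0.120), and DESeq2 called 1.

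Neuron markers stood in the same order at day 3. The summed CPM of the 8 neuron markers was 1298 to 1601 in WT, 1841 to 4411 in HET and 4616 to 7652.5 in KO, with 7 of 8 called higher in KO and 3 of 8 in HET. Of 5 dividing cell markers, 3 were lower in KO, where their sum was 406 to 1119 CPM against 1073 to 2110.5 in WT. The 6 glial markers summed to 54.4 to 99.7 CPM in KO and 7.29 to 17.2 in WT, with PDGFRA the 1 called higher in KO (and lower in HET) and 2 of the 6 at 3 counts or fewer in all libraries of each group. Of all genes 21.6% were called in KO and 3.28% in HET against WT at day 3. The part of these marker differences in the ARC result was not tested.

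IER2 was at 61.4, 43.3, 47.3 and 36.7 CPM in KO at day 3 and at 31, 28.1, 24.5 and 29.7 CPM in WT. The groups did not overlap (log2 0.72, SE 0.18, adjusted p 0.0106; 0.205 on TPM), and HET at 29.9 to 41 CPM overlapped WT (0.28, 95% interval -0.10 to 0.66). EGR1 was at 0.67, 1.35, 0.951 and 0.692 CPM in KO and at 0.276, 0.495, 0.359 and 0.5 CPM in WT, again with no overlap. Its difference of 1.15 log2 (SE 0.38, adjusted p 0.0434) rests on 15 to 62 counts a library. EGR1 lost its call in 10 of 15 alternatives, without each WT replicate and without KO replicate 1, 2 or 3 among them (adjusted p up to 0.142). On the TPM scale the difference was 0.18 log2 (adjusted p 0.244), with medians of 0.05 TPM in WT and 0.15 in KO. These lie under the 1 which that scale adds, so a fold is shrunk there. FOS was at 0.359, 0.391, 0.559 and 0.568 CPM in KO, above every WT library, with a difference of 1.11 log2 that did not pass (SE 0.57, adjusted p 0.184). JUN was at 76.2, 31, 42.9 and 71.4 CPM in KO and 23.5, 16.9, 21.7 and 46.8 CPM in WT (log2 1.02, SE 0.40, adjusted p 0.0868). With the replicate number as a block JUN passed (1.05, adjusted p 0.00108), as it did with DESeq2 (adjusted p 0.0422), with the structural RNA share in the model (1.33, adjusted p 0.0283) and without WT replicate 4 (1.42, adjusted p 0.0249). JUNB was at 12 to 16.2 CPM in KO and 15.5 to 17.8 CPM in WT (log2 -0.21, 95% interval -0.54 to 0.13; 0.29 on the TPM scale).

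**Figure D3:**
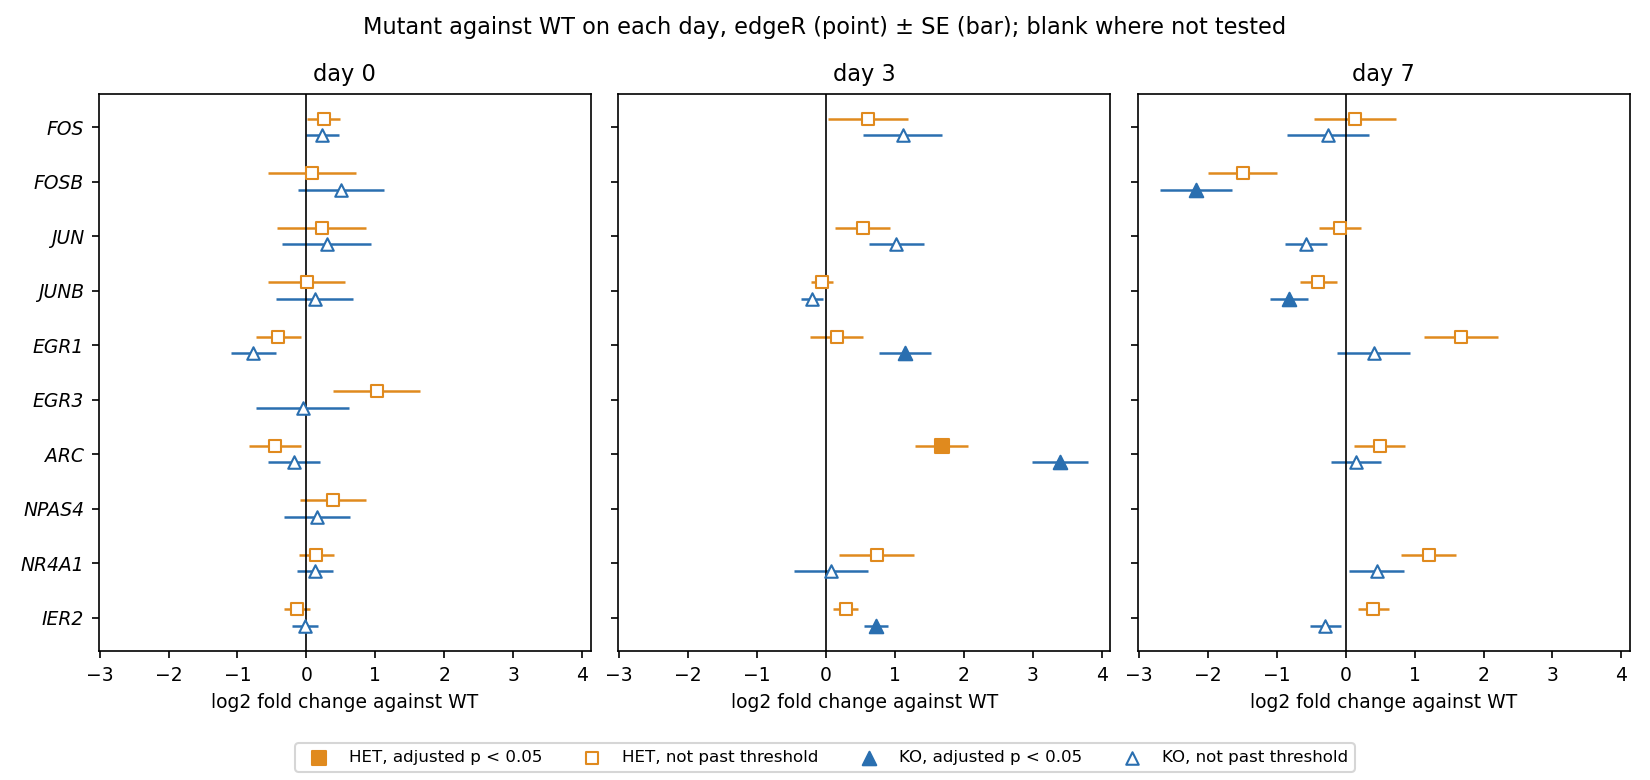
The plot of log2 changes gives each member's difference from WT in HET and KO on days 0, 3 and 7 (edgeR estimate and SE; filled where the adjusted p was under 0.05). At day 3 ARC stands at 3.39 in KO and 1.68 in HET, and at day 7 FOSB stands at -2.17 in KO.

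At day 7 no ARC difference between genotypes passed, FOSB and JUNB were lower in KO, and in HET NR4A1 and the mean of EGR1 were higher without passing. In KO against WT 2 of 8 tested members were called, both lower (32.6% of 21714 genes called; 15.6% lower), and these were the 2 whose libraries did not overlap (40% of all genes). In HET against WT 0 of 8 were called in edgeR (14.4% of genes) and 1 did not overlap (14.9%), with 3 at an unadjusted p under 0.05 and the same 3 with DESeq2 (FOSB, EGR1 and NR4A1) and none with limma on TPM. In KO against HET 0 of 8 were called (1.4% of genes), with 2 at an unadjusted p under 0.05 (EGR1 and IER2) and none by DESeq2 or limma. At day 7 all 5 dividing cell markers were lower in KO and in HET (medians -3.74 and -3.04 log2), 4 of 8 neuron markers were higher in each, and of 3 tested mesenchymal markers 2 were lower in KO and 1 in HET. The dividing cell markers summed to 28.9 to 193 CPM in WT, 9.26 to 21.6 in HET and 11.05 to 13.1 in KO, and the neuron markers to 5528 to 11168, 10665 to 13254 and 11235 to 14185. The 6 mesenchymal markers summed to 26.2 to 35.9 CPM in WT, 1.13 to 29.4 in HET and 0.905 to 3.24 in KO. The 6 stem cell markers summed to 50.6 to 61.4 CPM in WT, 73.1 to 146 in HET and 229 to 307 in KO. Of the 2 tested, LIN28A was higher in KO (3.38 log2) and in HET (2.09), and DPPA4 was lower in KO (-2.29). The part of all these markers in the member results was not tested.

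FOSB had 3, 12, 10 and 15 counts in the KO libraries of day 7 and 56, 68, 38 and 26 in WT. These are 0.28 ± 0.162 and 1.26 ± 0.507 CPM (SD, n = 4), with no overlap (log2 -2.17, SE 0.52, adjusted p 0.0074). In HET FOSB had 30, 16, 13 and 6 counts (-1.49, SE 0.50, adjusted p 0.0644), and without HET replicate 1 it passed (-1.93, adjusted p 0.0134). JUNB was at 9.27, 9.87, 8.14 and 6.86 CPM in KO and 17.1, 12.8, 15.1 and 15.4 CPM in WT (log2 -0.82, SE 0.27, adjusted p 0.0341). The JUNB call was lost in 9 of 16 alternatives, 7 of them the fits without WT replicate 1, 3 or 4 or any KO replicate (adjusted p up to 0.0861), and over all 8 fits that leave out 1 library the difference was -0.90 to -0.73 log2. On the TPM scale neither FOSB nor JUNB passed (adjusted p 0.390 and 0.831), where the median of all genes was shifted by 0.18. FOSB had medians of 0.17 TPM in WT and 0.095 in KO, under the 1 which that scale adds. Its difference there, -0.13 log2, is shrunk by this and cannot decide whether the count result holds. JUNB lay above it, at 2.785 TPM in WT and 2.35 in KO. JUN was at 59.2 to 99.5 CPM in KO and 91.1 to 141 in WT (-0.57, SE 0.31, adjusted p 0.171), and FOS overlapped fully (-0.25, 95% interval -1.53 to 1.03).

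EGR1 was at 1.63, 14.4, 7.08 and 16.5 CPM in HET at day 7 and at 3.91, 3.37, 2.07 and 3 CPM in WT. HET replicate 1 was below every WT library and the other 3 were above all of them (log2 1.67, SE 0.54, adjusted p 0.0548; without HET replicate 1 2.00, adjusted p 0.00132). NR4A1 was at 25.4, 11.2, 11.6 and 14.3 CPM in HET, above the 2.21, 6.74, 9.1 and 8.91 CPM of WT (log2 1.204, SE 0.40, adjusted p 0.0595; 0.0178 in DESeq2). ARC was at 4.55, 9, 6.8 and 10.6 CPM in KO, within the range set by WT at 4.45 to 9.47 apart from 1 library (log2 0.15, 95% interval -0.64 to 0.94). The change of ARC from day 3 to day 7 differed between KO and WT by -3.26 log2 (SE 0.58, adjusted p 1.18e-04), and that of IER2 by -1.03 (SE 0.29, adjusted p 0.0103). These 2 were the members called for that interaction (18.5% of genes, 10.9% lower); on the TPM scale neither passed, and without KO day 3 replicate 1 the IER2 call was lost. For HET none was called (4.74%; EGR1 was the 1 at an unadjusted p under 0.05, and DESeq2 called none). HET day 7 replicate 1 was the highest of its group for 8 of 9 members above the floor, among them JUN at 206 CPM against 73.6 to 86.1, and it had 27.5% of its counts in small structural RNAs against 2.84% to 13.4% in the other 3. That order holds for CPM: on the TPM scale JUN was at 13.9 TPM there against 31.6, 22.9 and 11.2 in the other 3, and IER2 and NR4A1 (2.79 TPM) were the lowest of the group. Without HET day 7 replicate 1, 4 members were called in HET against WT: FOSB, JUN and JUNB lower and EGR1 higher. The share of all genes called in that fit is not given here, so these 4 calls have no background beside them. The part of the structural RNA in these results was not tested.

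**Figure D4:**
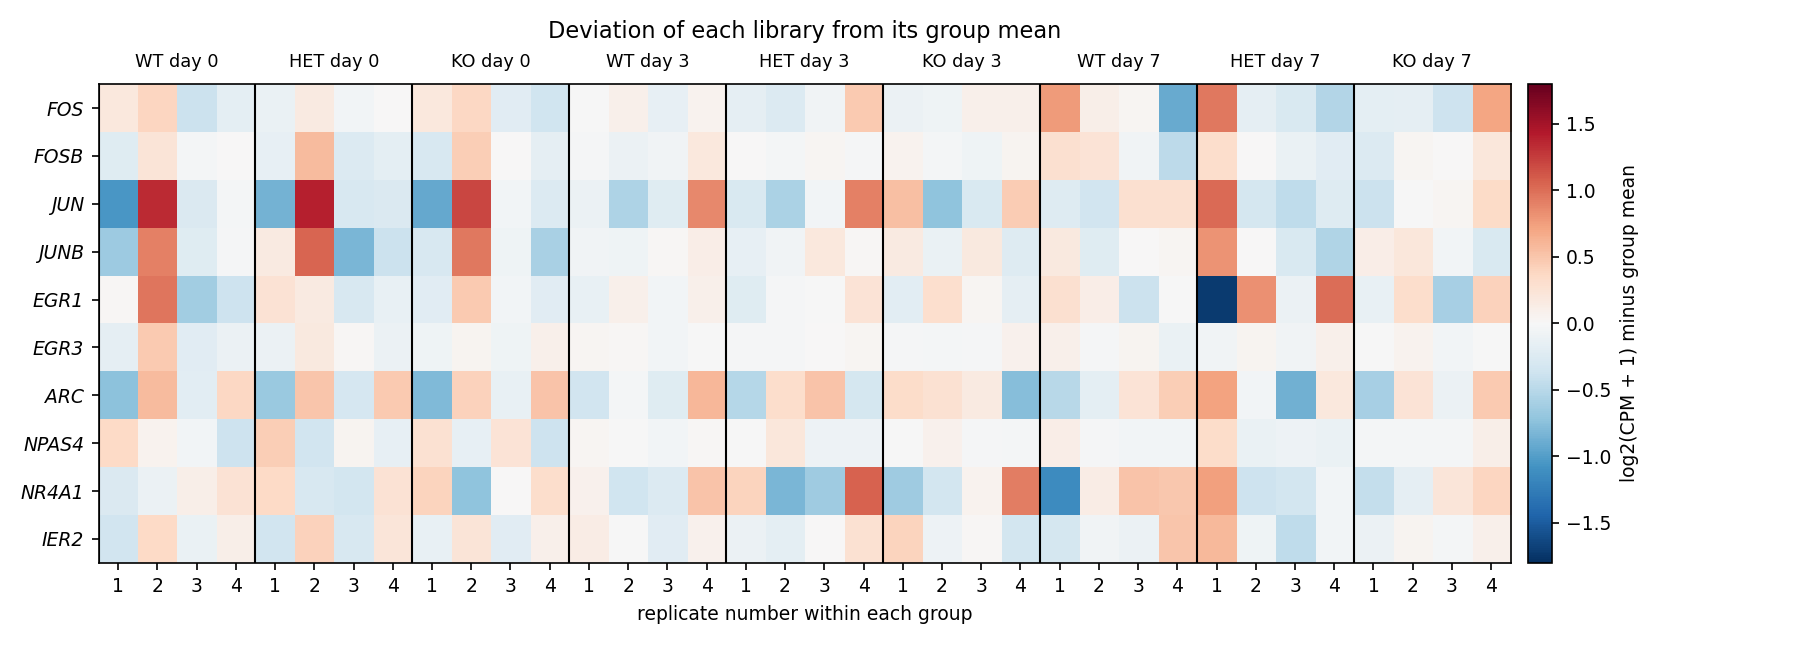
The map of deviations gives log2(CPM + 1) minus the group mean for each member in each of the 36 libraries, by replicate number. Replicate 2 of day 0 is high for JUN and JUNB in all 3 genotypes, and HET day 7 replicate 1 is high for most members on this CPM scale and low for EGR1.

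Replicates of 1 group differed in these genes more than most genes of their level did. JUN varied by 0.71 (SD of log2(CPM + 1) within groups, pooled over the 9), above 98.2% of the 5367 genes within a factor of 2 of its mean level, and NR4A1, ARC and EGR1 lay above 91.4%, 90.7% and 89.4% of theirs. IER2 and EGR3 were nearer the middle (62.3% and 55.4%). At day 0, replicate 2 was the highest library for 8 of 10 members in WT, 7 in HET and 6 in KO. JUN was at 30.9, 36.4 and 34.7 CPM in these 3 libraries and at 5.06 to 14 CPM in the other 9, and JUNB at 8.35, 8.84 and 9.11 against 1.69 to 4.3. NPAS4 and NR4A1 did not follow: in HET and KO their replicate 2 libraries were among the lower ones. With all 3 replicate 2 libraries left out, a choice made after seeing the data, 8 members were called in WT, 7 in HET and 7 in KO for day 3 against day 0, and 0 in each comparison at day 0. Deviations of JUN and JUNB from their group means correlated at r = 0.71 over the 36 libraries, FOSB and JUNB at 0.70 and ARC and IER2 at 0.74, while EGR1 stayed near 0 with JUN (0.01) and with JUNB (0.03). These are descriptions over libraries that share depth and composition.

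Among 14 other early transcription factors, calls against WT came at day 3 in KO and at day 7 in both mutants. None of the 12 tested at day 0 was called in either mutant. At day 3, 4 of 10 were higher in KO, NR4A2 and NR4A3 (the sister receptors of NR4A1, 0.89 and 1.58 log2), JUND (0.56) and CSRNP1 (0.56), and none in HET, where 21.6% and 3.28% of all genes were called. At day 7 FOSL2, a FOS-family partner of JUN, was higher in KO (35.1 against 9.06 CPM, 1.96 log2, adjusted p 4.66e-04) and in HET (1.74, adjusted p 0.00278), as was NR4A3, while CSRNP1 and NR4A2 were lower in KO (-1.52 and -1.91). Of all genes 32.6% were called in KO and 14.4% in HET at that day. So at day 7 2 AP-1 genes were lower in KO, FOSB and JUNB, and 1 was higher, FOSL2. Of 10 dimer partners of AP-1 factors, 1 of 9 tested was higher in KO at day 0, where 2.08% of all genes were called. At day 3, 2 of 8 tested were higher in KO (MAFG and ATF2) and 1 was lower (MAF). At day 7, 1 of 8 was higher in KO and 2 were lower (MAF, -2.07, and ATF7, -0.38). In HET 1 was lower at day 7 (MAF, -1.68). The shares over all genes were 21.6% in KO at day 3, and 32.6% in KO and 14.4% in HET at day 7.

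The genes that end the response moved in both directions. Of 14 feedback regulators, all tested, 4 were higher and 3 lower in KO at day 3, 2 higher in HET at day 3, 4 higher and 3 lower in KO at day 7 and 4 higher and 2 lower in HET at day 7, with medians of 0.35, 0.18, 0.25 and 0.38 log2 against -0.05, 0.02, -0.04 and 0.00 over all genes. Of all genes 21.6%, 3.28%, 32.6% and 14.4% were called in these 4 comparisons. DUSP5, a nuclear phosphatase of ERK, was at 417 to 939.8 CPM in HET at day 3 and at 1.27 to 2.47 CPM in WT and 1.38 to 4.08 CPM in KO (HET against WT 8.45 log2, SE 0.46, adjusted p 1.17e-07). At day 0 the 3 genotypes of DUSP5 overlapped, and at day 7 HET was at 10.9 to 14.2 CPM and WT at 2 to 3.41. DUSP6, a cytoplasmic phosphatase of ERK, was higher at day 7 in KO (89.3 against 8.11 CPM, 3.46 log2) and HET (2.89), with SPRY4 (2.75 in KO). ZFP36L1 speeds the decay of AU-rich transcripts such as those of many early genes. At day 7 ZFP36L1 was at 6.07 to 23.3 CPM in WT and at 0.063 to 0.205 CPM in KO (-6.95, SE 0.85, adjusted p 1.17e-04). It was also lower than in WT in HET at day 7 (-4.19) and in KO at day 3 (-2.14).

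Of 26 upstream kinases, factors and coactivators, 4 were higher and 2 lower in KO at day 3 and 6 higher and 2 lower in KO at day 7, with medians of 0.02 and 0.10 log2. These shares are close to those of all genes (21.6% and 32.6% called). CAMK2A, a calcium-dependent kinase of synapses, was higher in KO at day 7 (30.3 against 4.49 CPM, 2.76 log2, adjusted p 5.22e-04), and ELK3, a partner of SRF, was lower (-2.42, adjusted p 0.00629). CAMK4 was also higher in KO at day 7 (77.9 against 26.1 CPM, 1.58 log2). In HET 1 was lower at day 3 (CAMK4, -0.91), and at day 7 2 were higher and 1 lower. The shares over all genes in HET were 3.28% and 14.4%. Of 13 later activity-regulated genes, which early factors such as NPAS4 and AP-1 are known to act on, 5 of 12 tested were higher and none lower in KO at day 3, 4 and 0 in HET, then 5 higher and 1 lower in KO and 4 higher and 1 lower in HET at day 7, beside 21.6%, 3.28%, 32.6% and 14.4% of all genes. Neuron markers moved with them, 7 of 8 higher in KO and 3 in HET at day 3 and 4 in each at day 7, and their part was not tested. The secreted factor NRN1 was at 44.98 CPM in KO, 18 in HET and 5.25 in WT at day 3 (3.09 and 1.80 log2). VGF, a neuropeptide precursor, was at 66 to 104 CPM in KO and 3.03 to 10.04 in WT at day 7 (3.60 log2, adjusted p 1.58e-04) and PCSK1, which cleaves such precursors, at 29.5 to 80.2 and 2.7 to 5.7 CPM (3.42). NPTX1 was lower in KO at day 0 (-2.29, adjusted p 0.0154) and higher at days 3 and 7.

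Of 10 heat shock and handling stress genes, HSPA1A was higher in KO than in WT on all 3 days (2.18, 2.59 and 4.44 log2), and HMOX1 was also higher in KO at day 3. HSPA1A averaged 54.9, 32.1 and 75.9 CPM in KO and 12.4, 5.28 and 3.51 in WT on days 0, 3 and 7. HSPA1B of the same list averaged 54.5, 38.9 and 70.5 CPM in KO and 75.8, 61.1 and 62.7 in WT. How reads were divided between HSPA1A and HSPA1B was not tested. At day 7, 4 were higher and 3 lower in KO, among the lower HSPB1 (-4.00) and BAG3 (-1.38), where 32.6% of all genes were called. The mean of HMOX1 at day 7 was lower in KO, 11.8 CPM (7.47 to 19.2) against 30.1 in WT (14.6 to 37.2). In HET none was called at day 0 or day 3, and at day 7 HSPA8 was higher (0.80) and HSPB1 lower (-2.18), where 14.4% of all genes were called. The part of these genes in the member results was not tested.

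Likeness of pattern was ranked over 12367 genes by Pearson r of log2(CPM + 1) across the 36 libraries, as a description with no test. Nearest to JUN were JUND (0.94), DNAJB2 (0.94) and POU3F1 (0.94), and nearest to JUNB were ME3 (0.92), BTG2 (0.91) and NUMBL (0.90). EGR1 was most like FSTL1 (0.91), CDC42EP3 (0.91) and FAM124A (0.90). ARC had no gene as close, with FAM53C (0.83) the nearest.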

How the data were processed

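The 36 H9 libraries (9 groups of 4) were made from rRNA-depleted total RNA and read from both ends on a NovaSeq X Plus, per the labels' protocols. The submitters' processing notes name cutadapt 4.8, FastQC 0.11.8, STAR 2.7.8a, RSEM 1.3.3, MultiQC 1.20 and build GRCh38, with no order or settings. The authors deposited expected counts per gene, all whole numbers, and TPM values. The labels call replicates biological and give all libraries 1 batch label.

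The members and gene lists were chosen with earlier results of these data known. The rule named all 10 members and, from each other list, up to 3 called genes per comparison with the largest changes, a mean of at least 5 CPM and no overlap; other list genes were named after their values were seen. Reporter sequences (4 of 62714 features) were left out. CPM used TMM factors over all libraries. Tests used edgeR 4.0.16 (R 4.3.3): TMM, filterByExpr, quasi-likelihood F tests and Benjamini-Hochberg adjustment over all genes, threshold 0.05. Genotypes were compared on the 12 libraries of a day, days on the 12 of a genotype and interactions on all 36. SEs are the log2 change divided by the square root of F, and intervals are 95% from the t distribution. A count of 3 or fewer was the floor, which covers counting error only.

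Each result was recomputed with DESeq2 size factors, by library size, without the filter, with DESeq2 1.42.0, with limma 3.58.1 on log2(TPM + 1), with a replicate block, with each library's structural RNA share in the model and after leaving out each replicate; leaving out sets of libraries was chosen after the data were seen. Same-numbered libraries deviated together, with every r over 0.1, for KO and WT at day 0 (0.29 to 0.70) and day 3 (0.13 to 0.59) and HET and WT at day 3 (0.17 to 0.80); the labels name nothing shared behind the numbers, and the gene set of this check, unlike its threshold, was chosen after the blocked counts had been seen. The scripts were tested on simulated data. Figures used matplotlib 3.10.9. Promoters came from RefSeq (GRCh38.p14) and positions from GENCODE 29. Results for some genes of the lists are not reported here.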

Additional observations from a re-analysis of the deposited data

Results flagged for a closer look

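In 9 of the 85 sets of 4 libraries that could be tested, 1 library lay far from the other 3 (Dixon's criterion), where chance gives about 4.25 for normal, independent sets. CPM near the floor and genes that share a library do not meet this, so the 9 cannot be weighed against the 4.25. FOS stood at 4.79 CPM in HET day 7 replicate 1 and at 3.24 CPM in KO day 7 replicate 4. JUN stood at 36.4 CPM in HET day 0 replicate 2 and at 206 CPM in HET day 7 replicate 1. FOSB stood at 1.04 CPM in HET day 0 replicate 2. The rest were low counts: EGR3 at 0.676 CPM in WT day 0 replicate 2 and at 0.0988 CPM in KO day 3 replicate 4, and NPAS4 at 0.363 CPM in HET day 7 replicate 1 and at 0.126 CPM in KO day 7 replicate 4.

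The changes between days differed between KO and WT for 2 genes (edgeR interaction terms). For ARC the difference was 3.62 log2 from day 0 to day 3 and -3.26 log2 from day 3 to day 7, and for IER2 it was -1.03 log2 from day 3 to day 7.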

How the results depend on the processing

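Of 332 counts of called members under alternative settings 286 stayed within 1.5 times the value given, and of 786 values for single members 672 kept their direction and their side of the threshold; 64 changed sign, none of them called. Shares of all genes called under the alternative settings are not given here. Low counts limit FOSB, EGR3 and NPAS4 after day 0. Leaving out the WT and HET day 7 replicate 1 libraries together, or the day 0 replicate 2 libraries together, was chosen after seeing the data.

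With the replicate number as a block, 1 member was called for HET at day 0 and 2 for the KO interaction from day 0 to 3; in the paired comparisons it gave 0 (KO day 0), 4 (KO day 3, JUN added) and 1 (HET day 3). Signs turned for EGR3 (0.26) in KO and FOSB (-0.0667) and JUNB (-0.0534) in HET at day 0, and NR4A1 in KO at day 3 (-0.0139). On log2(TPM + 1), calls were 1 for KO and 0 for HET and for KO against HET at day 3, 0 for KO at day 7, 4 for WT and 0 for KO from day 3 to 7, and 0 for the KO interaction from day 3 to 7; JUNB turned in HET at day 0 (-5.66e-04), KO (0.29) and HET (0.20) at day 3 and HET at day 7 (0.35), as did IER2 in KO (0.24) and JUN in HET (0.65) at day 7. With the structural RNA share, 1 was called in each comparison at day 7 and 5 for WT from day 0 to 3; JUNB in HET at day 0 (-0.0937), FOS in KO (0.11) and JUN in HET (0.30) at day 7 turned. HET at day 7 had 1 call by library size (JUNB at day 0 -6.40e-04), 2 with no filter (JUNB -0.0121) and 3 with DESeq2, which gave 1 and 2 for the HET and KO interactions from day 0 to 3. Without WT and HET day 7 replicate 1, 4 were called in HET, 1 in KO against HET and 1 for the HET interaction from day 3 to 7, with FOS at 0.24 in KO and -0.0409 in HET. Without the day 0 replicate 2 libraries EGR3 (1.35) and IER2 (0.0136) in KO and FOSB (-0.58) and JUNB (-0.10) in HET turned. The cause was not tested. For members under 1 TPM the added 1 shrinks changes on log2(TPM + 1), so a call lost there cannot decide whether the count result holds.

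Leaving out 1 library at a time, called members ranged from 0 to 1 for HET at days 0 and 3, KO against HET at days 3 and 7 and the HET interaction from day 3 to 7, from 1 to 2 for KO and 0 to 4 for HET at day 7, and from 1 to 3 for both KO interactions. Log2 values in KO at day 0 ranged from -0.39 to 0.0381 (ARC), -0.0915 to 0.48 (NPAS4), -0.13 to 0.11 (IER2), -0.0535 to 0.83 (FOSB), -0.34 to 1.02 (JUN), -0.43 to 0.63 (JUNB), -0.40 to 1.45 (EGR3) and -0.0270 to 0.32 (NR4A1). In HET at day 0 they ranged from -0.0149 to 0.72 (NPAS4), -0.91 to 0.41 (FOSB), -0.57 to 0.95 (JUN), -0.60 to 0.51 (JUNB), -0.60 to 0.0675 (EGR1) and -0.0033 to 0.25 (NR4A1). At day 3 they ranged from -0.46 to 0.35 (NR4A1, KO), -0.13 to 0.36 (EGR1, HET) and -0.25 to 0.91 (FOS, HET). At day 7 they ranged from -0.75 to 0.22 (FOS, KO), -0.0383 to 0.34 (ARC, KO), -0.56 to 0.61 (FOS, HET) and -0.59 to 0.0724 (JUN, HET).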
